A study of Mus musculus with 2 samples.

Results

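The genes of the tumor necrosis factor (TNF) superfamily encode trimeric ligands, most of them held on the cell surface, and the receptors that bind them. They were taken from the array as every row whose platform symbol starts with Tnfrsf or Tnfsf or is one of a short list of older names (Tnf, Lta, Ltb, Ltbr, Cd27, Cd40, Cd40lg, Cd70, Fas, Fasl, Ngfr, Edar, Eda2r and Relt). This gave 47 of 65956 rows. Of these, 44 rows named a single gene and 3 named several, and the 44 rows stood for 42 genes, 15 of ligands and 27 of receptors. The RNA came from Vγ6 γδ T cells, which arise in the fetal and newborn thymus, sorted from 0-day-old C57BL/6 mice that were MHC class II KO, and so without the proteins that show peptides to CD4 T cells, or WT. Which class II gene is disrupted and whether thymi were pooled are not stated in the labels. With 1 array for each genotype, the differences below carry neither error nor test and describe 2 arrays.

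TNF superfamily receptors signal through adaptor proteins of the TRAF family or, where they carry a death domain, through TRADD and FADD, and many of them lead to the transcription factor NF-κB. In the thymus, RANK ligand, lymphotoxin and CD40 ligand made by lymphoid cells act on epithelial cells of the medulla and promote their maturation. Around birth, γδ T cells and lymphoid tissue inducer cells are among the sources of RANK ligand. On T cells, OX40, GITR, DR3, CD27 and TNFR2 act as costimulatory receptors.

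Promoter sequences are shown for the ligand genes with the highest differences among those above background (Tnf and Tnfsf14), for Ltb, which lies close to Tnf but differed little, and for the receptor gene with the lowest difference, also above background (Tnfrsf1b). They run from 250 bases before to 50 after the start of the gene, are from RefSeq (GRCm38.p6), and are written 5′ to 3′ on the strand of the gene. Capitals mark matches, on either strand, to an NF-κB site (GGG and TTTCC with any 2 bases between them), an AP-1 site (TGANTCA) or a TATA box (TATAAA).
Tnf, chr17:35201958-35202257, minus strand: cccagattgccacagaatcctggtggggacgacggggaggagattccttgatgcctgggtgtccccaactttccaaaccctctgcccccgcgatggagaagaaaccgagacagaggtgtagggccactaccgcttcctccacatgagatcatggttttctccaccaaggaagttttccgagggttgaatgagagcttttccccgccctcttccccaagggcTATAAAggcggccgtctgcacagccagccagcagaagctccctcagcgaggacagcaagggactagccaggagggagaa
Tnfsf14, chr17:57194132-57194431, minus strand: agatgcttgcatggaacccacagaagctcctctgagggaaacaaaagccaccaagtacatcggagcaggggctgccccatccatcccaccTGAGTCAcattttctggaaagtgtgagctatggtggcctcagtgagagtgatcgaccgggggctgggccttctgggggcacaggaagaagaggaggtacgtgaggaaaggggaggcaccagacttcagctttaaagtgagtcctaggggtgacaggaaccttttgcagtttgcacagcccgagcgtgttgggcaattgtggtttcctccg
Ltb, chr17:35194257-35194556, plus strand: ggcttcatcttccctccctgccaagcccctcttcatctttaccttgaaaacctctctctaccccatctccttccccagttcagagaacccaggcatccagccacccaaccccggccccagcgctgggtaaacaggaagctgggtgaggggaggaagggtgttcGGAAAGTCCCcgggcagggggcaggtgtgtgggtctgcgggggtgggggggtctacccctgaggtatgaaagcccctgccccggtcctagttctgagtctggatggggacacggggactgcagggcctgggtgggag
Tnfrsf1b, chr4:145246821-145247120, minus strand: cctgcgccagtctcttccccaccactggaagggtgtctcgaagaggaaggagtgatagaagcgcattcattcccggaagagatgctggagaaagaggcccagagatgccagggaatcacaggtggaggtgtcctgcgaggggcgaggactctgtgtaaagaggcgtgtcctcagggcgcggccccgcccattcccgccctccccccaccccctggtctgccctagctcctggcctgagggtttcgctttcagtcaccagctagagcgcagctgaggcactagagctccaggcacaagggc

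In these windows the Tnf promoter held a TATA box at position -29 from the start, Tnfsf14 an AP-1 match at -160, Ltb an NF-κB match at -87, and Tnfrsf1b none of the 3 motifs. By symbol, 33 of the 42 genes had an entry, with 37 promoters in all. The NF-κB motif was found in 3 of these 37 (8.11%), those of Ltb, Tnfrsf25 and Tnfrsf9, and in 1.63% of all 32851 promoters of the same length. The AP-1 motif was found in 6 of the 37 (16.2%) and in 7.81% of all promoters. These 6 belong to Fas, Tnfrsf8, Tnfrsf9, Tnfsf13b and Tnfsf14, as a gene can have more than 1 promoter. The TATA box was found in 7 of the 37 (18.9%) and in 13.6% of all promoters. Of 19 promoters of member genes above background, 2 held the NF-κB motif, 3 the AP-1 motif and 3 the TATA box. A match describes the letters of the window and not a bound site, and a window without a match may hold other forms of these sites.

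Signals are the deposited intensities on a linear scale, and a difference is the log2 signal of MHC class II KO cells minus the log2 signal of WT cells. Background was set at the 95th percentile of the signals of olfactory receptor genes, a signal of 58.2 in MHC class II KO cells and 61.3 in WT cells. Of 30142 genes, 14494 (48.1%) were above it on at least 1 array, and their median difference was 0.04. Markers of the labelled cell type were above background. Cd3e, a chain of the T cell receptor complex, had signals of 119507 in MHC class II KO cells and 122517 in WT cells, and Tcrg-V6, the Vγ6 gene segment, had 5132 in MHC class II KO cells and 6373 in WT cells. The class II genes were lower in MHC class II KO cells, H2-Ab1 with 102 against 205 in WT cells and H2-Eb1 with 63.1 against 124, while H2-Aa was above background in WT cells alone (68.0). Deposited values passed the ceiling of a 16-bit scanner (65535) in 742 rows of the MHC class II KO array and 767 of the WT array, so the step that made them may have widened or narrowed every fold.

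The superfamily differed little between the arrays, with a receptor gene at each end. Of its 42 genes, 21 were above background on at least 1 array, 6 of 15 ligand genes (40%) and 15 of 27 receptor genes (55.6%). Tnfrsf26 alone was higher in MHC class II KO cells by 1.5-fold or more, and Tnfrsf1b alone was lower by that much. Across all genes above background, 4% were higher and 3.17% lower by 1.5-fold or more, so 1 of 21 in each direction is near the background share. No member was 2-fold apart, against 0.793% of all genes higher and 1.15% lower by that measure. Of the 21 genes, 13 had differences above 0, as did 56.4% of all genes, and the quartiles of their differences were -0.14 and 0.19, against -0.13 and 0.21 for all genes. For 170 genes with more than 1 row above background, the gap between the differences of 2 rows had an SD of 0.27. That SD compares rows on the same 2 arrays and does not measure variation between arrays or animals. No gap between replicate arrays can be had.

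Ligand and receptor genes had like medians, and the range of the receptor genes was wider. The 6 ligand genes above background had a median difference of 0.09 and ran between -0.14 and 0.56, none of them 1.5-fold apart. The 15 receptor genes had a median of 0.05 and ran between -0.76 and 0.89. Tnfrsf1b and Tnfrsf26 alone set these ends, and a range widens with the number of genes. The quartiles were -0.03 and 0.38 for the ligand genes and -0.29 and 0.18 for the receptor genes. With a correction of the difference for mean signal by loess, the medians were 0.05 for ligands and 0.01 for receptors.

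**Figure D1:**
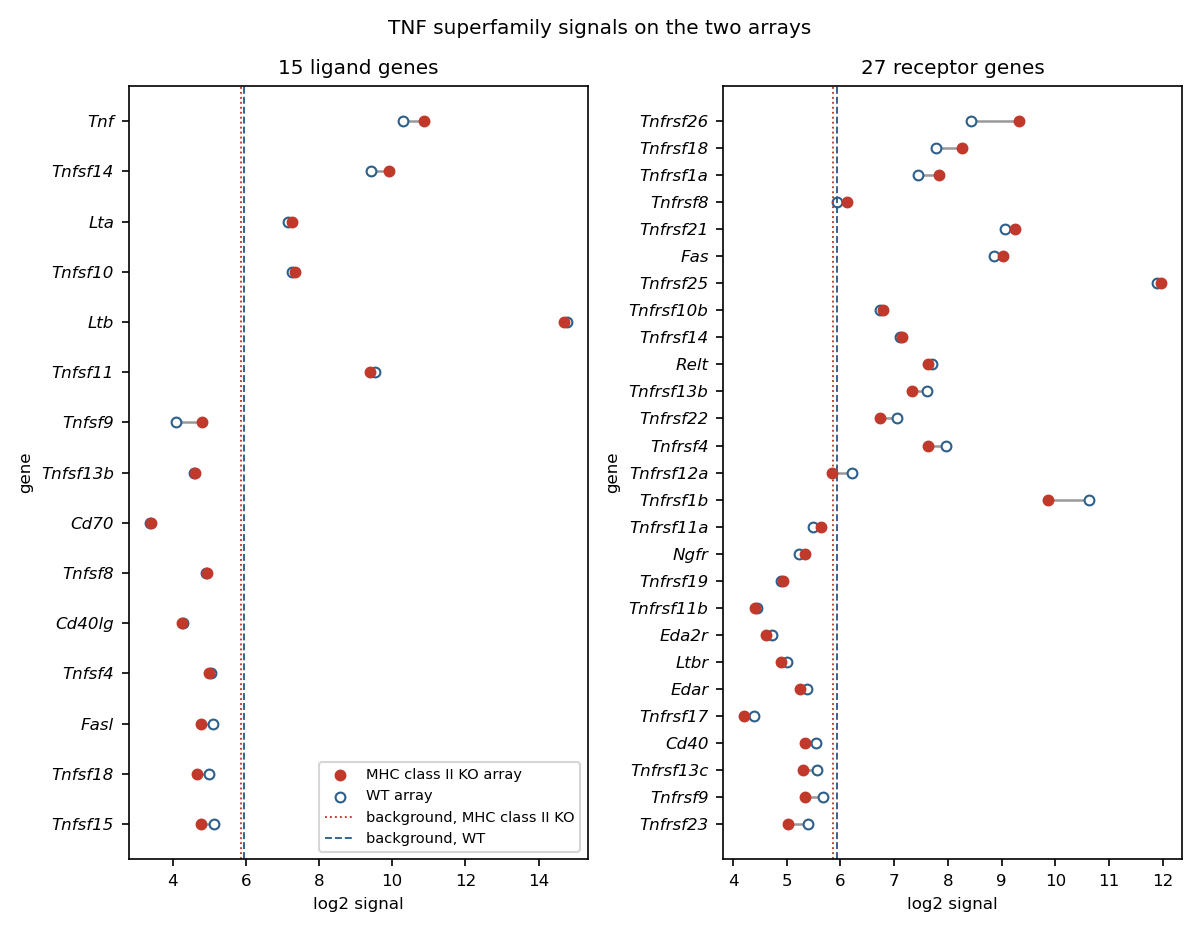
Log2 signal of the 15 ligand genes (left) and 27 receptor genes (right) in MHC class II KO cells (filled) and the WT array (open), with the background of each array as a vertical line. Genes above background on at least 1 array are at the top of each panel, in order of difference, and each row is to be read between the 2 arrays, not against other rows. The longest gaps above background are those of Tnfrsf26 (0.89) and Tnfrsf1b (-0.76).

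Tnf encodes the founding cytokine of the family, which γδ T cells release on activation. Its signal was 1853 in MHC class II KO cells and 1255 in WT cells, a difference of 0.56 or 1.48-fold, just short of 1.5-fold. Of all genes above background, 4.43% had a difference as high or higher. Lta and Ltb, which lie beside Tnf on chromosome 17 and encode the chains of lymphotoxin, did not share this difference. Lta had signals of 154 in MHC class II KO cells and 143 in WT cells (0.11). Ltb had 26707 in MHC class II KO cells and 27863 in WT cells (-0.06), a gap smaller than the SD between 2 rows of a gene. Tnfsf14, whose product LIGHT binds HVEM and the lymphotoxin β receptor, was 955 in MHC class II KO cells and 690 in WT cells, a difference of 0.47.

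The receptors for TNF went in opposite directions. Tnfrsf1b encodes TNFR2, which lacks a death domain and is bound best by membrane TNF. Its signal was 937 in MHC class II KO cells and 1588 in WT cells, a difference of -0.76 or 1.69-fold lower. Only 1.93% of all genes above background had a difference as low or lower. Tnfrsf1a encodes TNFR1, which carries a death domain, and had signals of 227 in MHC class II KO cells and 175 in WT cells (0.38). That is within 1.5-fold, and 10.8% of all genes above background had a difference as high or higher. Under each of 3 other scalings Tnfrsf1b stayed between -0.84 and -0.76 and Tnfrsf1a between 0.32 and 0.38. Tnfrsf14, which encodes HVEM, had 141 in MHC class II KO cells and 138 in WT cells, a difference of 0.03 that lay below 0 after centring. Ltbr, the lymphotoxin β receptor gene, was below background on both arrays.

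Of 6 receptor genes listed here as costimulatory, 4 were above background, while none of the 7 ligand genes listed with them was. These 6 leave out Tnfrsf1b, given above, and Cd27, the receptor gene for the product of Cd70, which had no row of its own and is given below. Tnfrsf18, the gene of GITR, had a signal of 308 in MHC class II KO cells and 221 in WT cells (0.48). Tnfrsf4, the gene of OX40, lies 2 annotated genes away on chromosome 4 and had 197 in MHC class II KO cells and 250 in WT cells (-0.34). The neighbours thus differed in opposite directions, and neither reached 1.5-fold. Tnfrsf25, the gene of DR3, the receptor of TL1A, had near equal signals of 4016 in MHC class II KO cells and 3817 in WT cells (0.07). Tnfrsf8, the gene of CD30, was 69.7 in MHC class II KO cells and just under background in WT cells, which bounds it at 1.14-fold higher or more. Tnfrsf9 (4-1BB) and Cd40 were below background on both arrays, as were the ligand genes Tnfsf4, Tnfsf8, Tnfsf9, Tnfsf15, Tnfsf18, Cd70 and Cd40lg, so no fold is given for them.

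CD27 marks γδ T cells that tend to make interferon gamma, and IL-17-producing γδ T cells such as Vγ6 cells mostly lack it on the surface. Cd27 was measured on a row that also names the microRNA gene Mir8113. That row had a signal of 231 in MHC class II KO cells and 159 in WT cells, a difference of 0.54, and the share of each gene in it cannot be told apart. The other rows with several symbols, 1 naming Tnfsf12 with Tnfsf13 and 1 naming the antisense gene Tnfsf13os, were below background on both arrays.

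**Figure D2:**
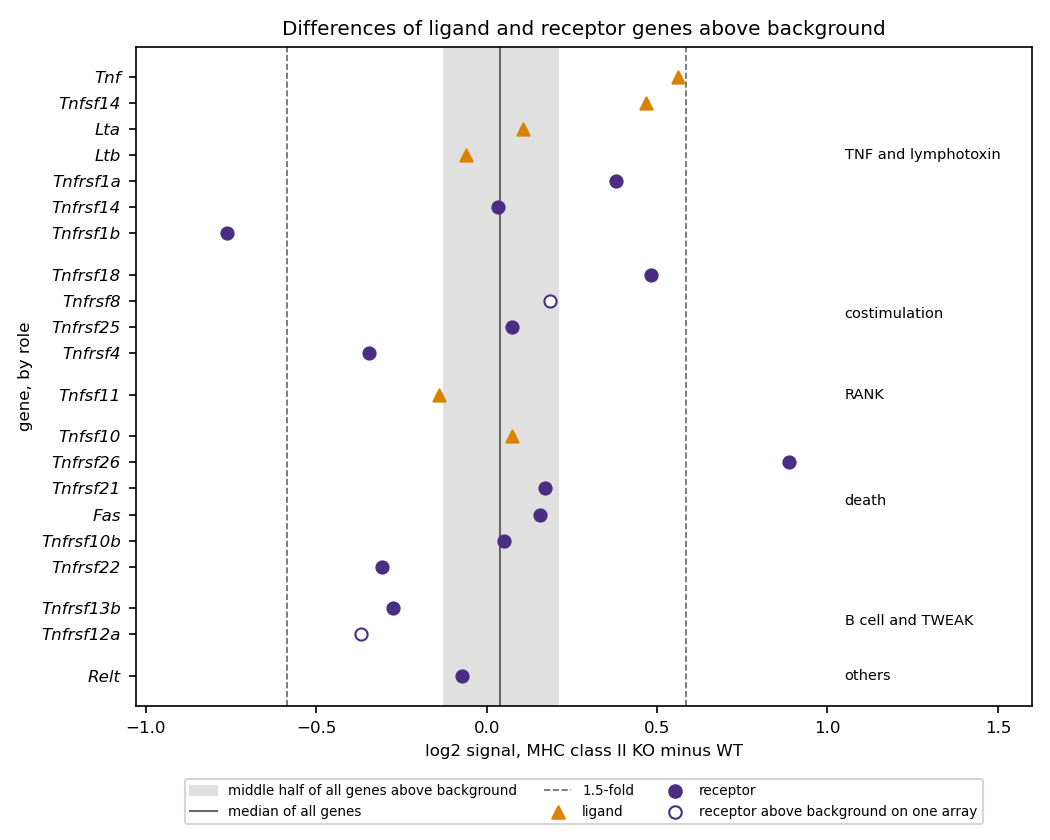
Difference in log2 signal, MHC class II KO minus WT, for the 21 ligand genes (triangles) and receptor genes (circles) above background, grouped by role. Open symbols were above background on 1 array, the grey band runs between the quartiles of all 14494 genes above background (-0.13 and 0.21), and dashed lines mark 1.5-fold. Tnfrsf26 and Tnfrsf1b lie outside the dashed lines and Tnf lies just inside.

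The RANK system was seen through its ligand alone. Tnfsf11 encodes RANK ligand, which acts on RANK of thymic epithelial cells and osteoclast precursors. Its signal was 672 in MHC class II KO cells and 740 in WT cells, a difference of -0.14. Tnfrsf11a (RANK) and Tnfrsf11b, the gene of the soluble decoy osteoprotegerin, were below background on both arrays.

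Among the genes of death ligands, death receptors and decoys, Tnfrsf26 stood apart from its neighbours. Tnfrsf26, Tnfrsf22 and Tnfrsf23 follow each other on chromosome 7 with no annotated gene between them, and Tnfrsf22 and Tnfrsf23 encode mouse decoy receptors for TRAIL. Tnfrsf26 had a signal of 639 in MHC class II KO cells and 345 in WT cells, a difference of 0.89 or 1.85-fold, which 1.21% of all genes equalled or exceeded. Tnfrsf22 had 107 in MHC class II KO cells and 133 in WT cells (-0.31), and Tnfrsf23 was below background. The 3 genes are close relatives of each other in mouse, and whether probes are shared between their rows was not tested.

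Fas encodes a death receptor of lymphocytes. It had 2 rows, and both were a little higher in MHC class II KO cells. The first row had signals of 519 in MHC class II KO cells and 466 in WT cells (0.16), and the other had 178 in MHC class II KO cells and 144 in WT cells (0.31). The identifier of that other row places it on chromosome 17, whereas RefSeq has Fas on chromosome 19, so what it measures is uncertain. For 43 of the 44 rows with a single symbol the chromosome in the identifier matched RefSeq. Fasl, the gene of Fas ligand, was below background on both arrays.

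TRAIL and its death receptor were nearly level. Tnfsf10, the gene of TRAIL, had 162 in MHC class II KO cells and 154 in WT cells (0.07), and Tnfrsf10b, the gene of its death receptor DR5, had 111 in MHC class II KO cells and 107 in WT cells (0.05). Tnfrsf21, the gene of the death domain receptor DR6, had 607 in MHC class II KO cells and 538 in WT cells (0.17). Each of these gaps was smaller than the SD between rows of a gene, which is not an error of a difference between the genotypes.

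The receptors best known from B cells and from TWEAK signalling lay below 0. Tnfrsf13b, the gene of TACI, which binds BAFF and APRIL, had 162 in MHC class II KO cells and 195 in WT cells (-0.27). Tnfrsf12a, the gene of the TWEAK receptor Fn14, was below background in MHC class II KO cells and 74.2 in WT cells, which bounds it at 1.27-fold lower or more. Tnfrsf13c, Tnfrsf17 and the ligand gene Tnfsf13b were below background on both arrays. Relt, a receptor gene of lymphoid tissue, had 197 in MHC class II KO cells and 207 in WT cells (-0.07), and Ngfr, Edar, Eda2r and both rows of Tnfrsf19 were below background.

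Of 21 ligand-receptor pairs listed for the family, 7 had both genes above background. In 5 pairs the ligand gene alone was above background, in 6 the receptor gene alone, and in 3 neither. Among the 7, the signs were the same in 4 and opposite in 3, and after centring, which turns the sign of Tnfrsf14, the same in 3 and opposite in 4. Tnf (0.56) and Tnfrsf1b (-0.76) were the pair farthest apart, with a gap of 1.32, and Tnfsf10 and Tnfrsf10b were the closest, with a gap of 0.02. Pairs share genes, so these counts are not independent.

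**Figure D3:**
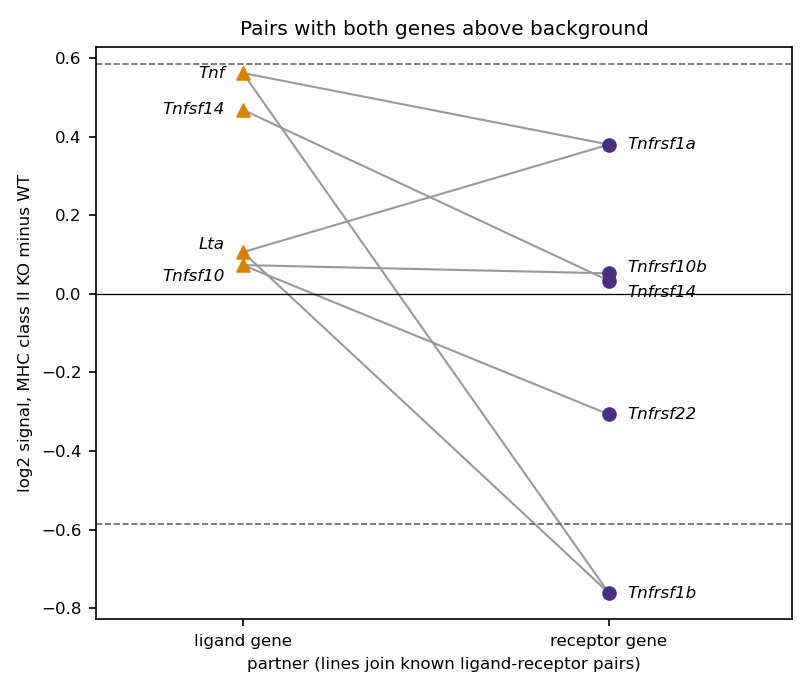
Difference in log2 signal, MHC class II KO minus WT, of the ligand gene (left) and receptor gene (right) in the 7 pairs with both above background. Lines join partners and dashed lines mark 1.5-fold. Lines from Tnf end at Tnfrsf1a (0.38) and at Tnfrsf1b (-0.76).

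The genes that act below the receptors differed both ways. Of 38 listed, 34 had a row with their symbol alone and all 34 were above background on both arrays. None was at least 1.5-fold higher and 3 were lower by that much, against 4% and 3.17% of all genes. Their median difference was 0.09, beside 0.04 for all genes. With the loess correction it was 0.01, beside -0.00075 for all genes. The lowest was Tnfaip3, the gene of the deubiquitinase A20, with 5276 in MHC class II KO cells and 9016 in WT cells (-0.77). Traf4, the gene of a TRAF adaptor, had 110 in MHC class II KO cells and 185 in WT cells (-0.74). Nfkbia, the gene of the inhibitor IκBα, had 12116 in MHC class II KO cells and 18272 in WT cells (-0.59), and Rel, the gene of the NF-κB subunit c-Rel, had 3790 in MHC class II KO cells and 5465 in WT cells (-0.53). Tnfaip3 and Nfkbia are known targets of NF-κB as well as brakes on it.

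The 4 highest were Ripk3, Tradd, Traf2 and Traf5. Ripk3, the gene of the kinase that drives necroptosis, had 9731 in MHC class II KO cells and 6757 in WT cells (0.53). Tradd, the gene of the death domain adaptor of TNFR1, had 418 in MHC class II KO cells and 303 in WT cells (0.47). Traf2 had 711 in MHC class II KO cells and 517 in WT cells (0.46), and Traf5 had 127 in MHC class II KO cells and 92.5 in WT cells (0.45). All 4 were within 1.5-fold, and other genes of adaptors and of proteins that act with them lay below 0, among them Traf6 (-0.32), Birc2 (-0.27) and Casp8 (-0.26).

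**Figure D4:**
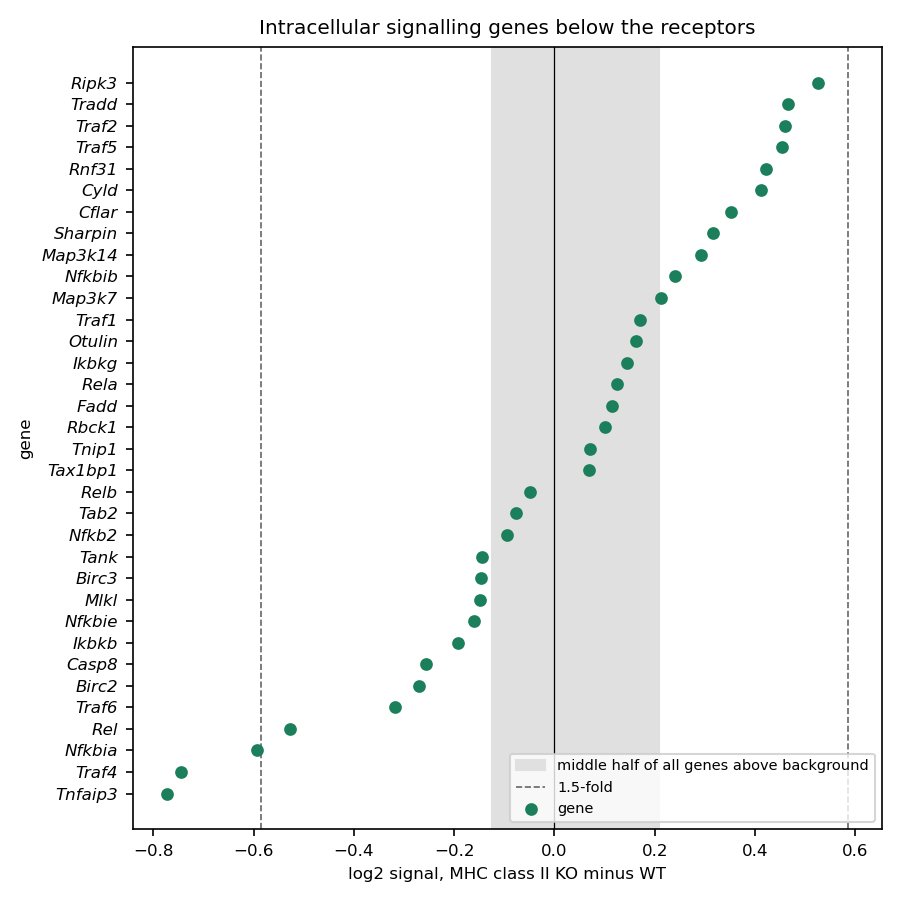
Difference in log2 signal, MHC class II KO minus WT, of 34 genes that act below TNF superfamily receptors, in order. The grey band runs between the quartiles of all genes above background and dashed lines mark 1.5-fold. Tnfaip3 (-0.77), Traf4 (-0.74) and Nfkbia (-0.59) lie below the lower line.

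Markers of other cells also differed between the arrays. Summed signals are over all markers of a list with a row, those below background included, and the brightest markers weigh most in them. Of 12 genes that mark double positive and αβ thymocytes, 9 had a row and 8 were above background. By measured difference, 7 were higher in MHC class II KO cells by 1.5-fold or more, against 4% of all genes above background. The summed signal of the 9 was 32830.5 in MHC class II KO cells and 13468 in WT cells. Most of it was Cd8b1, with 27602.5 in MHC class II KO cells and 10633.9 in WT cells. The differences were 1.38 for Cd8b1, 1.23 for Aqp11, 0.97 for Cd24a and 0.74 for both Cd8a and Themis, and Rag2 was below background on both arrays. Dntt (225) and Ptcra (86.2) were above background in MHC class II KO cells alone. Ptcra counts among the 7 with a WT signal under background (57.4), and against the WT background of 61.3 it was within 1.5-fold. Of 5 markers of regulatory T cells, which also use Tnfrsf18, Tnfrsf4 and Tnfrsf1b, 4 had a row and 3 were above background, with a summed signal of 4245 in MHC class II KO cells and 4976 in WT cells. The median difference of the 3 was 0.28, with Ctla4 at -3.46, Ikzf2 at 0.28 and Il2ra at 1.19. Without Ctla4 the sum was 4019 in MHC class II KO cells and 2489 in WT cells. Of 8 B cell markers, 7 had a row and 2 were above background (Ighm 1.41 and Cd79b 0.11), with a summed signal of 42522 in MHC class II KO cells and 16776 in WT cells, while Cd79a, Ms4a1, Pax5, Ebf1 and Cd22 were below background on both. Without Ighm the sum was 1295 in MHC class II KO cells and 1214 in WT cells. Among 10 markers of dendritic cells and macrophages, 3 exceeded background (summed signal of all 10, 872 in MHC class II KO cells and 623 in WT cells). Most of that gap was Cd68, with 486 in MHC class II KO cells and 259 in WT cells (0.91). Siglech differed by 0.03, and Lyz2 (75.3) was above background in MHC class II KO cells alone. Csf1r, Itgax, Itgam, Adgre1, Flt3, Xcr1 and Zbtb46 were below background on both. Of 9 thymic epithelial markers 4 were above background, and the summed signal of all 9 was 445 in MHC class II KO cells and 519 in WT cells. Only Ccl25 was above background on both arrays, with 168 in MHC class II KO cells and 180 in WT cells (-0.10). Krt8 (68.9) and Epcam (68.1) were above it in WT cells alone, while Ly75 (65.9) was above it in MHC class II KO cells alone. By measured difference, Krt8 (-1.01) was the 1 of these 4 at least 1.5-fold lower, against 3.17% of all genes, and 0 were higher by that much. Its signal in MHC class II KO cells was under background (34.3), and against the background of 58.2 it was within 1.5-fold. Foxn1, Aire, Psmb11, Krt5 and Krt14 were below background on both. Of 7 markers of innate lymphoid and lymphoid tissue inducer cells, 6 had a row and 5 were above background, none of them 1.5-fold apart, with a summed signal of 52750 in MHC class II KO cells and 43818 in WT cells. Their median difference was -0.04, and without Il7r, which T cells also use, the sum was 13548 in MHC class II KO cells and 16042 in WT cells. The 7 γδ T cell markers with a row were all above background and within 1.5-fold. Their summed signal was 416108 in MHC class II KO cells and 404476 in WT cells. Most of that sum came from Cd3e, Cd3d and Cd3g, which αβ T cells also use, so it does not measure γδ T cells alone. The differences of the 7 ran from -0.31 for Tcrg-V6 to 0.30 for Cd3g, with a median of 0.03. The part of the other cell types in the differences of Tnfrsf26, Tnfrsf1b, Tnf and Tnfrsf18 and of the row naming Cd27 was not tested. More cells of a type and more RNA per cell cannot be told apart.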

How the data were processed

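Gene expression was measured on whole-transcript arrays, 1 per genotype. RMA and Affymetrix Expression Console 1.4.1 are listed, per the submitters' processing notes. No source used here gives the RMA variant or the genome build. Each transcript cluster has 1 deposited intensity, on a linear scale, and the authors' normalization was kept. Precision is limited by the number of arrays.

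Log2 was taken with Python 3.11.15 (pandas 2.3.3). Of 65956 rows, 30604 had a single symbol in the platform annotation (possibly dated), 2146 several and 33206 none. RefSeq (GRCm38.p6) supplied current symbols for 22818 rows. The brightest row stood for a gene. The background of an array was the 95th percentile over its 1228 olfactory receptor rows, and the fold of a gene above it on 1 array is a bound against the background of the other. Genes were counted at 1.5-fold on the measured difference, also where 1 array was under background, and no test was possible. The code was tested on simulated data. Alternatives were 3 other scalings (centring, quantile normalization and loess with a fraction of 0.3), values under background raised to it, 4 other filters, the mean of rows, rows with several symbols kept, means, and a 2-fold threshold.

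The members, roles, pairs and lists were chosen with earlier results of these data known. All members above background are named, with the 4 highest and 4 lowest signalling genes and markers at least 1.5-fold apart; the genes whose promoters are printed, and the other markers named, were chosen after their values were seen. Protein sequences were not used here.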

Additional observations from a re-analysis of the deposited data

How the results depend on the processing

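The differences of the 21 member genes moved by at most 0.0875 over the other scalings, the raised background and the mean of rows, and 20 kept their sign under the scalings. Tnfrsf14, at 0.03, was -0.01 after centring. Under the same changes Tnfrsf26 remained the gene at least 1.5-fold higher and Tnfrsf1b the gene at least 1.5-fold lower, and the counts stayed at 1 each. With no background filter, which brings in members below background on both arrays, 2 genes were at least 1.5-fold higher, the added one being Tnfsf9, and the median of the receptor genes was -0.0723. With a 2-fold threshold the counts were 0 higher and 0 lower. The medians of the ligand, receptor and signalling genes otherwise moved by less than 0.1, and 44 of 48 recomputed medians and counts stayed within that or, for counts, within 1.5 times. No scaling moved the median of all genes by 0.1. No paired analysis was possible because each genotype had 1 array, and for the same reason no array could be left out. Members near the background, such as Tnfrsf8 and Tnfrsf12a, have bounds only.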

Other observations

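Genes with symbols starting with Tnfaip or Tnip, and Eda, a group chosen after the values were seen, were looked at beside the family. Tnfaip8l2, which encodes TIPE2, a brake on immune receptor signalling, had a log2 signal of 11.41 in MHC class II KO cells and 10.87 in WT cells (0.54). Tnfaip8 differed by 0.26 and Tnfaip1 by 0.17, and Tnip1, the gene of an A20-binding protein, by 0.07. Tnfaip2, Tnfaip6, Tnfaip8l1, Tnfaip8l3, Tnip2 and Tnip3 were below background on both arrays, and so was Eda, the gene of the ligand of Edar and Eda2r. None of these genes but Tnfaip3 was 1.5-fold apart.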
